A study of Mus musculus with 6 samples.

Results

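Aminoacyl-tRNA synthetases and translation factors were examined in Treg cells of the neonatal liver and spleen, as 43 genes chosen by symbol: 20 cytosolic aminoacyl-tRNA synthetases and 23 initiation and elongation factors, of 23366 gene symbols in the count table. All 43 were found in the table by their symbol and all 43 passed the filter on low counts. RNA was sequenced from regulatory T (Treg) cells, which flow cytometry had sorted as CD4+GFP+ from the liver (n = 3 libraries) and the spleen (n = 3 libraries) of Foxp3GFP knock-in mice, in which Foxp3-expressing cells carry green fluorescent protein (GFP). All animals were 12 days old and carried the same knock-in allele, and no treatment separates the groups. The labels do not say whether a library came from 1 animal or from a pool, or that libraries came from separate animals, so each p reflects the spread among these 6 libraries alone. Xist, expressed from the inactive X chromosome of females, was at 1148, 0.0917 and 462 CPM in liver 1 to 3 and at 1299, 0.171 and 327 CPM in spleen 1 to 3. The Y-linked gene Ddx3y was at 0, 117 and 53.3 CPM in liver and at 0, 116 and 76.8 CPM in spleen. The libraries of a tissue thus differed in these transcripts, library 3 of each tissue held both, and like-numbered libraries, numbered here by accession order alone, were alike.

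A synthetase joins 1 kind of amino acid to its tRNA, and the charged tRNA then enters the ribosome with the help of the elongation factor eEF1A, while eEF2 moves the ribosome along the mRNA. Initiation brings the small ribosomal subunit to the mRNA: the eIF4 group binds the cap at the 5′ end of the mRNA, eIF3 holds the subunit, and eIF2 delivers the initiator tRNA. The pathway is controlled by the eIF4E-binding proteins, which mTORC1 inactivates, and by kinases that phosphorylate the alpha subunit of eIF2, which lowers general initiation and favours translation of Atf4. T cells are known to raise translation when they are activated and divide.

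Libraries held between 1199410 and 11408960 counts in genes, and the shallowest was spleen 1. The other 5 libraries held at least 8437055. Levels are CPM, a gene's count relative to all counts in genes of its library after TMM scaling, and 1 count was worth 0.861 CPM in spleen 1 and at most 0.120 CPM elsewhere. Foxp3, Cd4 and Cd3e, which mark the sorted cells, lay at 1103 to 1304, 590 to 693 in all but spleen 1 (718), and 342 to 389 CPM. These 3 did not pass the edgeR test described below, while the other 3 Treg markers listed did. Ctla4 averaged 733 CPM in liver and 400 CPM in spleen, Ikzf2 822 and 642, and Il2ra 408 and 620. Of the marker lists of other cell types, 9 of 9 tested erythroid genes, 9 of 10 macrophage genes, 9 of 13 granulocyte genes and 4 of 11 B cell genes were higher in spleen, and 6 of 11 NK and CD8 T cell genes were higher in liver, by edgeR's test described next. In the opposite direction were 1 granulocyte gene, Mmp9, and 1 NK and CD8 T cell gene, Eomes. The 4 globin genes Hba-a1, Hba-a2, Hbb-b1 and Hbb-b2 were listed at 0 in every library and not tested. Summed erythroid markers ranged from 12.0 to 17.6 CPM in liver and from 217 to 294 CPM in spleen. Summed macrophage markers ranged from 74.2 to 84.2 and from 138 to 218 CPM, granulocyte markers from 316 to 346 and from 512 to 867 CPM, B cell markers from 157 to 186 and from 233 to 347 CPM, and NK and CD8 T cell markers from 184 to 229 and from 62.9 to 70.6 CPM. In liver Vcam1, C1qa and C1qc were each at 0 in 1 library, Slc4a1 and Epb4.2 each in 2, and in spleen Alb, a hepatocyte gene at 2.20 to 7.32 CPM in liver, was at 0 in all 3. Of 5 hepatocyte and liver stroma genes tested, 1 was higher in liver, Alb, and 1 higher in spleen, Stab2. Stab2 averaged 0.403 CPM in liver and 10.8 CPM in spleen. The part of these cells in the results below was not tested. With every marker gene removed before scaling, the same 3 members passed. That removal acts on the scaling and leaves any RNA from these cells in the members' counts, so it cannot show their part.

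Translation genes differed little between the tissues. Of the 43 genes, 1 was higher in liver, the tryptophanyl-tRNA synthetase gene Wars, and 2 were higher in spleen, the glutamyl-prolyl-tRNA synthetase gene Eprs and the elongation factor gene Eif5a, by edgeR's quasi-likelihood test with Benjamini-Hochberg adjustment over all genes and a threshold of 0.05. That is 6.98% of the members, against 16.2% of the 11716 genes tested, 9.28% higher in liver and 6.9% higher in spleen. Since members are abundant, the share may also be read against the 6090 tested genes with a mean of 30 CPM or more, of which 18.6% passed; 3 of 42 members at that level passed. The other 40 members did not pass. Log2 fold changes (liver minus spleen) ran from -0.34 to 0.34, with a median of -0.06 over the members and -0.01 over all genes tested, and the median absolute value was 0.16 for members and 0.23 for all genes, or 0.17 for genes at 30 CPM or more. For 42 of the 43 members the unadjusted 95% interval of the fold change lay wholly within 1.5-fold in either direction, and for all 43 within 2-fold. The exception within 1.5-fold was Eif4ebp1, the least abundant member. Of the 11716 genes tested, the interval lay within 1.5-fold for 5397 and within 2-fold for 8329. Of the 6090 genes at 30 CPM or more, it did so for 4580 and 5718.

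**Figure D1:**
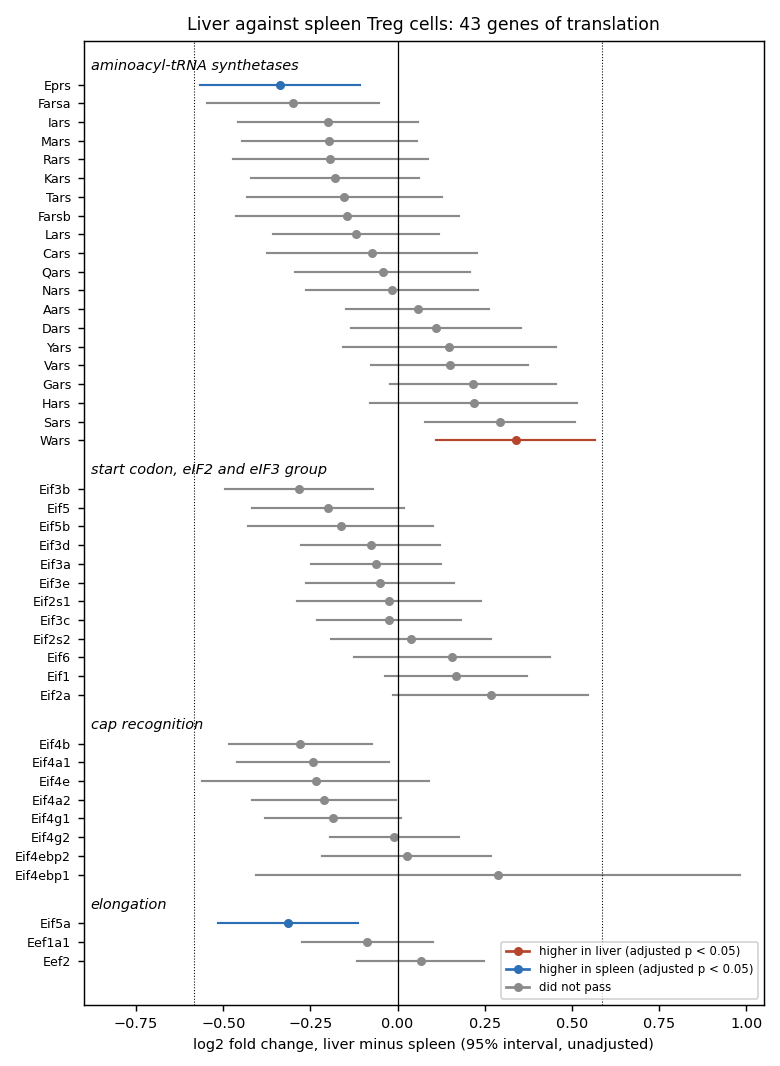
Log2 fold changes of liver minus spleen (x axis) for the 43 genes, grouped by role, with unadjusted 95% intervals; dotted lines mark 1.5-fold. Points run from -0.34 (Eprs) to 0.34 (Wars), 3 genes passed the test, and the Eif4ebp1 interval alone crosses a dotted line.

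The direction was uneven: 28 members had a value below 0 (lower in liver) and 15 above 0, and of all genes tested 5943 were below and 5773 above. For 12 of the 43 members the liver and spleen libraries did not overlap, where 32.9% of all genes tested did not. Spleen was the higher tissue in 10 of these 12, and in 1784 of the 3854 such genes overall. Spleen 1 held the highest spleen value for 29 of 43 members and the highest value of the 6 libraries for 19. Without spleen 1, Eif5a and Wars passed and Eprs did not, the median log2 fold change of synthetases was 0.01 and the median log2 fold change of factors was -0.0044. No member passed without liver 1 or without spleen 2, only the seryl-tRNA synthetase gene Sars passed without liver 2, only Eif5a and Wars without liver 3, and only Eif3b and Eif5a without spleen 3.

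Summed levels were close. The 20 synthetases together were at 2107, 2031 and 2137 CPM in liver and 2263, 2028 and 1961 CPM in spleen, and the tissues overlapped. The 23 factors together were at 19249, 18413 and 19379 CPM in liver and 21698, 19516 and 18138 CPM in spleen, again overlapping. Eef1a1 and Eef2 held 61.5% to 63.9% of the members' counts in a library, and the factors without these 2 genes summed to 5637, 5436 and 5622 CPM in liver and to 6471, 5995 and 5771 CPM in spleen. That sum was lower in each liver library than in each spleen library. Fewer cells and less RNA per cell cannot be told apart in such bulk libraries.

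Among synthetases, Wars was at 124, 135 and 128 CPM in the liver libraries and 122, 93.4 and 99.6 CPM in the spleen libraries. The tissues did not overlap, but spleen 1 stood just below the lowest liver library. Wars was higher in liver by 0.34 ± 0.11 (log2, SE; edgeR adjusted p = 0.0397, 1.26-fold). Without spleen 1 the difference was 0.42 (edgeR adjusted p = 0.00556), and without spleen 2 it was 0.26 (edgeR adjusted p = 0.280). In human cells this enzyme is known to be induced by interferon gamma.

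Eprs encodes a bifunctional enzyme that charges the tRNAs of glutamate and proline. It was at 95.7, 99.6 and 96.6 CPM in liver and 148, 116 and 115 CPM in spleen. The 3 liver libraries lay close together, below all 3 spleen libraries, and spleen 1 was well above the others. Eprs was lower in liver by a log2 fold change of -0.34 ± 0.11 (SE; edgeR adjusted p = 0.0424, 1.26-fold). Without spleen 1 it was -0.24 (edgeR adjusted p = 0.0843), and no leave-out of 1 library kept the call.

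Farsa, which encodes the alpha subunit of phenylalanyl-tRNA synthetase, was at 61.7, 59.0 and 67.6 CPM in liver and 73.2, 74.4 and 82.4 CPM in spleen. The libraries did not overlap, yet the difference of -0.30 ± 0.12 did not pass (edgeR adjusted p = 0.0964). The beta subunit is encoded by Farsb, which had a log2 fold change of -0.14 ± 0.15 (edgeR adjusted p = 0.585). Sars was at 189, 156 and 197 CPM in liver and 145, 149 and 147 CPM in spleen, with all liver libraries above the spleen ones. Its difference of 0.29 ± 0.10 missed the threshold (edgeR adjusted p = 0.0587).

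The other 15 synthetases were between -0.20 and 0.22 on the log2 scale. Above 0 were the enzymes of glycine (Gars, 0.22 ± 0.11), histidine (Hars, 0.22 ± 0.14), valine (Vars, 0.15 ± 0.11), tyrosine (Yars, 0.15 ± 0.14), aspartate (Dars, 0.11 ± 0.12) and alanine (Aars, 0.06 ± 0.10). Below 0 were those of isoleucine (Iars, -0.20 ± 0.12), methionine (Mars, -0.20 ± 0.12), arginine (Rars, -0.19 ± 0.13), lysine (Kars, -0.18 ± 0.11), threonine (Tars, -0.15 ± 0.13), leucine (Lars, -0.12 ± 0.11), cysteine (Cars, -0.07 ± 0.14), glutamine (Qars, -0.04 ± 0.12) and asparagine (Nars, -0.02 ± 0.12). Mars and Rars had libraries that did not overlap, with spleen higher. Nars was at 115, 108 and 126 CPM in liver and 147, 110 and 108 CPM in spleen, with spleen 1 the highest and spleen 3 the lowest of the 6 libraries. Of the 20 synthetases, 18 did not pass, and the median over all 20 was -0.06.

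**Figure D2:**
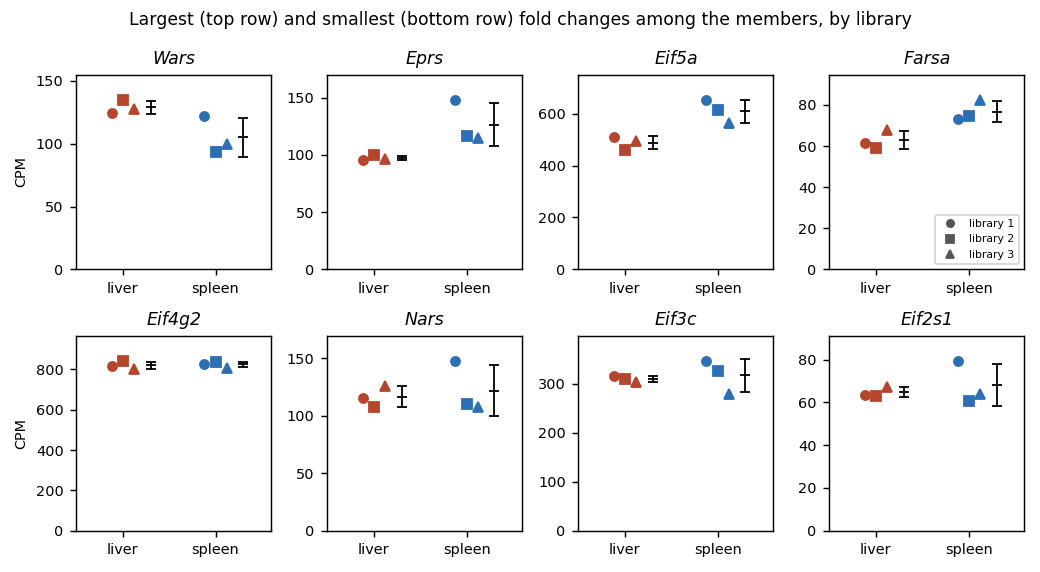
CPM in each library (symbols) with mean ± SD (black) for the 4 members with the largest and the 4 with the smallest absolute log2 fold change. In the top row the tissues do not overlap, although Wars in spleen 1 (122 CPM) comes close to liver 1 (124 CPM); in the bottom row they overlap, and spleen 1 is highest for Nars, Eif3c and Eif2s1.

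Among the 12 genes grouped under start codon, eIF2 and eIF3, which also include Eif5b and Eif6, edgeR called 0. At an unadjusted p under 0.05 there was 1, Eif3b; DESeq2 called 0, and limma-voom called 2, Eif2a (higher in liver) and Eif3b (higher in spleen). Eif3b encodes a scaffold subunit of eIF3, and it was at 273, 251 and 266 CPM in liver and 366, 318 and 286 CPM in spleen. All spleen libraries were the higher ones, and the log2 fold change was -0.28 ± 0.10 (edgeR adjusted p = 0.0670). With a block on the sex-linked transcripts of a library Eif3b passed (edgeR adjusted p = 0.0445). Other eIF3 subunits were closer to 0: Eif3a at -0.06 ± 0.09, Eif3c at -0.02 ± 0.10, Eif3d at -0.08 ± 0.09 and Eif3e at -0.05 ± 0.10. Eif3a, which encodes the largest eIF3 subunit, also had all spleen libraries above the liver ones, by a small margin. Eif3c was at 315, 311 and 303 CPM in liver and 346, 325 and 280 CPM in spleen, a spread in spleen that enclosed all liver libraries.

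Eif2s1 and Eif2s2 encode the alpha and beta subunits of eIF2. Eif2s1, whose protein the stress kinases phosphorylate, was at 63.5, 63.2 and 67.3 CPM in liver and 79.2, 60.8 and 64.0 CPM in spleen. The tissues overlapped, with a log2 fold change of -0.03 ± 0.13 (edgeR adjusted p = 0.925); Eif2s2 was at 0.04 ± 0.11. Eif2a, which despite its symbol is not a subunit of eIF2 but a separate factor that can bind initiator tRNA, had 0.27 ± 0.13 (edgeR adjusted p = 0.202). Eif1, which guards start codon choice, had 0.17 ± 0.10. Eif5, which triggers GTP hydrolysis on eIF2, had -0.20 ± 0.10, and Eif5b, which joins the ribosomal subunits, -0.16 ± 0.13. Eif6, which keeps the large subunit from joining too early, had 0.16 ± 0.13. None of these 5 passed edgeR's test (adjusted p between 0.202 and 0.491).

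Among the 8 cap recognition genes, edgeR called 0, while 3 had an unadjusted p under 0.05, DESeq2 called 1 (Eif4b) and limma-voom called 3 (Eif4a2, Eif4b and Eif4g1), all higher in spleen. Eif4b, a helper of the helicase eIF4A, was at 394, 373 and 396 CPM in liver and 523, 461 and 433 CPM in spleen. Every spleen library exceeded every liver library, and the log2 fold change was -0.28 ± 0.10 (edgeR adjusted p = 0.0610, or -0.20 without spleen 1). With the block on sex-linked transcripts Eif4b passed (edgeR adjusted p = 0.0466). The helicase genes Eif4a1 and Eif4a2 had -0.24 ± 0.10 and -0.21 ± 0.10, the scaffold gene Eif4g1 -0.19 ± 0.09 and the cap-binding protein gene Eif4e -0.23 ± 0.15. Of the 8 genes 6 were below 0 and 2 above, and 3 (Eif4a1, Eif4b and Eif4g1) did not overlap between tissues, against 32.9% of all genes tested. Eif4g2, a relative of Eif4g1 whose protein does not bind eIF4E, was at 815, 840 and 802 CPM in liver and 828, 836 and 809 CPM in spleen. Its libraries overlapped throughout, and its fold change of -0.01 ± 0.09 was the smallest of the members.

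The inhibitors of eIF4E had wide or centred values. Eif4ebp1 was at 9.02, 14.2 and 19.5 CPM in liver and 18.1, 6.77 and 14.4 CPM in spleen, where the 18.1 CPM in spleen 1 stands for 21 counts. The tissues overlapped, and the 95% interval of the log2 fold change (0.29) reached from -0.40 to 0.98, the widest of the members. Eif4ebp2, the more abundant inhibitor per exon length, was at 231, 210 and 169 CPM in liver and 226, 189 and 192 CPM in spleen, with 0.03 ± 0.12.

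Of the 3 elongation genes, Eif5a passed. Its product, eIF5A, helps the ribosome past difficult peptide bonds and is the protein known to carry hypusine, made from the polyamine spermidine. Eif5a was at 510, 459 and 496 CPM in liver and 652, 612 and 562 CPM in spleen, so that all spleen libraries were above all liver ones. It was lower in liver, at -0.31 ± 0.10 (log2, SE; edgeR adjusted p = 0.0314, 1.24-fold). Without spleen 1 the value was -0.26 (edgeR adjusted p = 0.0498), and across the 15 alternatives it passed in 12. Eef1a1 (-0.09 ± 0.09) and Eef2 (0.07 ± 0.09) did not pass, at edgeR adjusted p values of 0.577 and 0.677. Eef1a1 averaged 7994 ± 254 CPM over the liver libraries against 8491 ± 990 CPM over those of spleen, and Eef2 averaged 5455 ± 195 against 5213 ± 470 CPM (SD, n = 3 each).

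Per exon length the members spanned a wide range of levels, which the tissues shared. On a scale of CPM per kilobase of exon, Eef1a1 stood at 4456 ± 142 in liver and 4733 ± 552 in spleen (SD, n = 3 each), and Eef2 at 1766 ± 63.2 and 1688 ± 152. Eif1, Eif4a1 and Eif5a followed, at 301, 239 and 205 in liver and 269, 285 and 256 in spleen; in spleen the order of Eif1, Eif4a1 and Eif5a is not separated by their SDs of 20.9, 38.4 and 19.0. Vars led the synthetases at 92.6 ± 6.20 in liver and 84.3 ± 11.6 in spleen, ahead of Qars at 68.6 ± 2.73 and 72.5 ± 15.3 and Kars at 52.8 ± 2.44 and 61.4 ± 10.7. Cars was the lowest synthetase at 12.4 ± 0.682 and 13.1 ± 1.27. The lowest members were the cap-binding protein gene Eif4e, at 8.71 ± 1.17 and 10.8 ± 2.17, and Eif4ebp1, at 7.14 ± 2.63 and 6.56 ± 2.89. For the subunits of 1 enzyme, Farsa stood at 34.4 ± 2.42 and 42.0 ± 2.75, and Farsb at 15.2 ± 0.898 and 16.3 ± 2.32. Exons of Farsb overlap Sgpp2 on the other strand, and reads there may have gone uncounted, so these levels may not be comparable. Reads that fitted more than 1 place were not counted, and 11 members match at least 1 annotated pseudogene at 95% identity or more over 300 bases, 10 of them factors. Eif1 matched 12, Eef1a1 8, Eif4a1 3, and Eif5a, Eef2 and Eif4e 1 each. The levels of all 11, and their places in the order above, are thus uncertain.

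**Figure D3:**
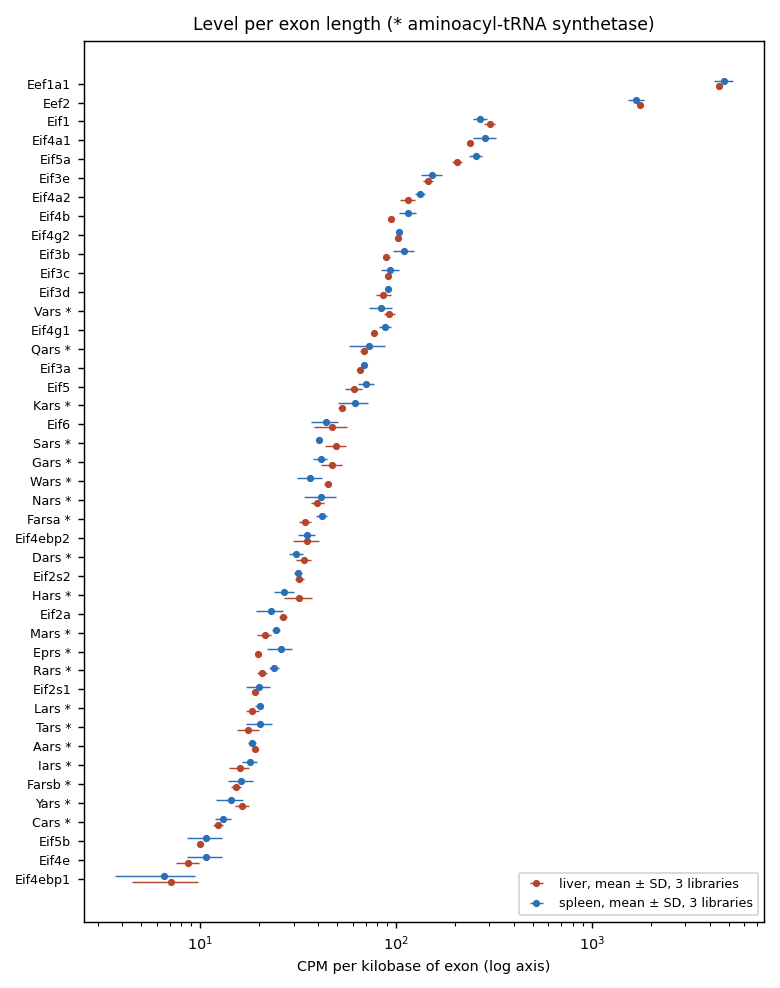
CPM per kilobase of exon (log axis) of each member in liver and spleen, mean ± SD over 3 libraries, with synthetases starred. Eef1a1 and Eef2 stand above all other members in both tissues and Eif4ebp1 is lowest, while liver and spleen points of 1 gene lie close together.

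Spread within a tissue was larger in spleen. The coefficient of variation had a median of 5.90% over the members in liver and 10.2% in spleen, and spleen 1 lay outside the range of spleen 2 and 3 for 38 of 43 members. For Eif4ebp1 the coefficient was 36.9% and 44.1%, the highest of the members in each tissue. Spleen 1 was also the shallowest library. Counting error alone in spleen 1, as 1 over the square root of the count, ranged from 0.948% for Eef1a1 to 21.8% for Eif4ebp1. The part of depth in the spread of spleen was not tested.

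Genes around the members were read from lists of the same pathway. Of 17 mitochondrial synthetases tested, edgeR called 1 lower in liver, the threonyl enzyme Tars2 (-0.40 ± 0.11, edgeR adjusted p = 0.0163), and 0 higher; at an unadjusted p under 0.05 there were 4 lower and 0 higher, and DESeq2 and limma-voom each called 2 lower. Of 28 other initiation factors tested, 25 did not pass and 3 were lower in liver (10.7%, against 6.9% of all genes tested), with 0 passing without liver 2 and 1 without spleen 2. These were Pabpc4, a poly(A)-binding protein gene (-0.46 ± 0.12, edgeR adjusted p = 0.0115), Pdcd4, which encodes an inhibitor of the helicase eIF4A (-0.34 ± 0.09, edgeR adjusted p = 0.0176), and Eif4g3 (-0.29 ± 0.09, edgeR adjusted p = 0.0449). EdgeR called 0 of 5 genes of eIF2B, the exchange factor of eIF2, 0 of 6 synthetase partners and 0 of 10 further elongation and release factors. Unadjusted p values under 0.05 numbered 0, 0 and 1 in these lists, DESeq2 called 0 in each, and limma-voom called 0, 0 and 2.

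Regulators upstream were read next. In the integrated stress response list, which follows the kinases of eIF2 and the targets of Atf4, 7 of 25 tested genes were higher in liver (28.0%, against 9.28% of all genes tested), 0 were higher in spleen and 18 did not pass by edgeR; 6 were lower in liver at an unadjusted p under 0.05, and limma-voom called 3 lower where DESeq2 called 0. In edgeR, 3 were higher in spleen without spleen 1 and 2 with upper-quartile scaling, and 3 were higher in liver and 1 in spleen with thinned libraries. Eif2ak2, the kinase PKR that senses double-stranded RNA, was at 82.4, 89.9 and 72.3 CPM in liver and 55.1, 48.3 and 47.0 CPM in spleen, and was higher in liver by 0.73 ± 0.13 (edgeR adjusted p = 0.000526). Atf4, the transcription factor of the response, was at 223, 204 and 226 CPM in liver and 161, 169 and 163 CPM in spleen, higher by 0.40 ± 0.09 (edgeR adjusted p = 0.00490), and it passed under all 15 alternatives. The list's other named genes were Ppp1r15a, whose product returns eIF2 to its active form (0.58 ± 0.11, edgeR adjusted p = 0.00119), and Cebpb (1.12 ± 0.25, edgeR adjusted p = 0.00396).

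The other eIF2 kinases were named after their values were seen. Eif2ak1, the heme-regulated kinase, and Eif2ak3, the kinase PERK of the endoplasmic reticulum, were higher in liver by 0.43 ± 0.10 and 0.49 ± 0.13 (edgeR adjusted p = 0.00676 and 0.0110). Eif2ak4, which senses uncharged tRNA, had -0.44 ± 0.16 and did not pass (edgeR adjusted p = 0.0769). Sesn2, likewise named after its values were seen, was also higher in liver (0.75 ± 0.22, edgeR adjusted p = 0.0243). Genes that did not pass, also named after their values were seen, lay on both sides of 0. The asparagine synthetase gene Asns had -0.61 ± 0.30, Ddit3 -0.42 ± 0.19 and the amino acid carrier gene Slc7a5 -0.34 ± 0.13, while Atf5 had 0.70 ± 0.34, and the serine synthesis genes Phgdh and Psat1 0.25 ± 0.12 and 0.23 ± 0.12. The list's median was 0.04, against -0.01 for all genes tested. RNA levels do not show whether eIF2 was phosphorylated or Atf4 protein was made.

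Of 34 genes tested in the mTORC1 list, 2 were higher in liver: Lamtor5 (0.63 ± 0.13, edgeR adjusted p = 0.00210) and the table's Gatsl2, now Castor2 (0.68 ± 0.16, edgeR adjusted p = 0.00583), and 2 were lower, the mTORC1 inhibitor Ddit4 (-0.55 ± 0.14, edgeR adjusted p = 0.00938) and Rragd (-0.75 ± 0.25, edgeR adjusted p = 0.0495); 30 did not pass. That is 11.8% of the list, against 16.2% of all genes tested. At an unadjusted p under 0.05 there were 4 higher and 5 lower in liver, DESeq2 called 2 and 1, and limma-voom 3 and 4. With 1 library left out, genes of the list lower in liver ranged from 0 (without liver 1 or spleen 3) to 4 (without spleen 1), and Rragd did not pass with the block on sex-linked transcripts (edgeR adjusted p = 0.0850). Of the Myc network 3 of 8 passed. Myc, a transcription factor known to raise genes of ribosomes and translation, was at 78.9, 72.6 and 65.3 CPM in liver and 120, 150 and 151 CPM in spleen, lower in liver with a log2 fold change of -0.99 ± 0.11 (edgeR adjusted p = 7.37e-06). Mxd3 (2.09 ± 0.19) and Mxi1 (0.85 ± 0.13), of the family that opposes Myc at shared sites, were higher in liver (edgeR adjusted p = 8.00e-07 and 0.000130). The other listed genes that oppose Myc, named after their values were seen, did not pass. These were Mxd1 (-0.10 ± 0.09), Mxd4 (-0.04 ± 0.11) and Mnt (-0.12 ± 0.09). Markers of cycling cells moved with tissue as well: all 14 genes of G2 phase and mitosis tested were higher in liver, with a median of 1.52, and their sum was 2210 to 2418 CPM in liver and 801 to 943 CPM in spleen. Their part in the members' values was not tested.

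**Figure D4:**
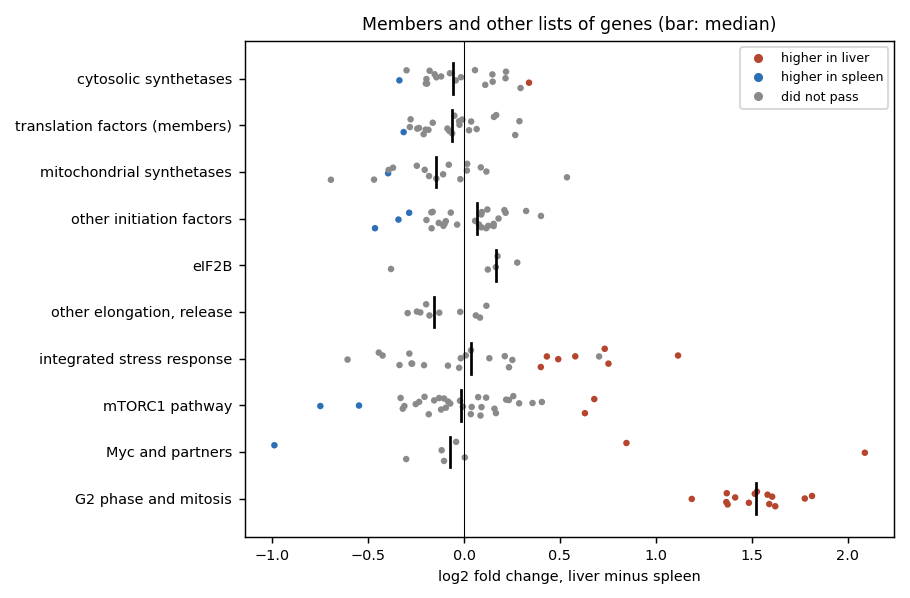
Log2 fold changes (x axis) of the members and of other lists, each point a gene and each bar a list's median. Medians of the synthetases and factors (both -0.06) lie near 0, beside 1.52 for genes of G2 phase and mitosis, and the points of the stress response and Myc lists spread widely.

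Promoter sequence was examined for 2 motifs of regulators that passed the test, chosen after the values were seen: TGATGNAA, the amino acid response element bound by Atf4, and CACGTG, the E-box bound by Myc and its partners, which reads the same on both strands. Windows of 250 bases before to 50 after the annotated start were available for 31 of 43 members (RefSeq, GRCm38.p6), and both strands were searched. Wars, which passed the test, was among the members without a window and was not searched. TGATGNAA occurred in 5 of 12 synthetases with a window, Aars, Gars, Iars, Tars and Yars, and in 0 of 19 factors, while 3.97% of all windows and 4.51% of all genes held it. CACGTG occurred in 4 of the 12 synthetases (Aars, Farsb, Iars and Tars) and 6 of the 19 factors (Eif3a, Eif4a1, Eif4e, Eif4g1, Eif5a and Eef2), against 7.15% of windows and 8.09% of genes. A match describes letters, not a bound site.

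A stretch with the amino acid response element is shown for each of the 5 genes that held it. Capitals mark the match, written on the strand of the gene, so that TTGCATCA and TTTCATCA are matches on the other strand.
Aars, chr8:111033695-111033772, plus strand: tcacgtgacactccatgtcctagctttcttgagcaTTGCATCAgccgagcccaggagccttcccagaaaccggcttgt
Gars, chr6:55037936-55038013, plus strand: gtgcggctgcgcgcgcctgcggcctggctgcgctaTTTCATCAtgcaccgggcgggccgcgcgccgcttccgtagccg
Iars, chr13:49682102-49682159, plus strand: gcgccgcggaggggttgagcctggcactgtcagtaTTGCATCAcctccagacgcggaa
Tars, chr15:11399631-11399708, minus strand: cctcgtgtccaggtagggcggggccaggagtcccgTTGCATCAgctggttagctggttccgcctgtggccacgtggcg
Yars, chr4:129189871-129189932, plus strand: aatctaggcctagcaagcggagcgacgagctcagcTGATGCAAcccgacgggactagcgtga

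Counted from the annotated start, the match began at -112 in Aars, -30 in Gars, -15 in Tars, 8 in Iars and 4 in Yars, and Aars held another match from 10. Log2 fold changes of these 5 genes were 0.06, 0.22, -0.20, -0.15 and 0.15, in the order of the lines above, with a median of 0.06, and the 7 synthetases whose windows lacked the letters had a median of -0.14. None of the 5 passed, and their signs were mixed. Whether Atf4 acts on these genes was not tested.

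For the E-box the stretches of Eif5a are shown, since it was the one member with this motif that passed. Its annotated windows held the motif at 2 places, and capitals mark it.
Eif5a, upstream place, chr11:69921420-69921495, minus strand: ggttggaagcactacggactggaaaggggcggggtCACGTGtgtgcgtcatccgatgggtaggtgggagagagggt
Eif5a, downstream place, chr11:69920768-69920843, minus strand: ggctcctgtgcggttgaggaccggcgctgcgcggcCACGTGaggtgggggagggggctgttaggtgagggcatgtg

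The 10 members with an E-box had a median log2 fold change of -0.17, from -0.31 (Eif5a) to 0.07 (Eef2). The members with a window but no E-box had -0.04. Whether Myc acts on these genes was not tested. In Aars, Iars and Tars, which held both motifs, the matches did not overlap. The values with and without a motif are descriptions and were not compared by a test.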

How the data were processed

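RNA was sequenced from 3 liver and 3 spleen libraries of sorted Treg cells. The authors deposited raw read counts per gene symbol. HISAT2 2.1, HTSeq 0.11 and mm9 are named for the reads, per the submitters' processing notes. The sources used here give neither annotation nor strand setting, so overlapping genes on opposite strands cannot be told apart. Members with such an overlap were Mars (with Ddit3), Hars (with Hars2), Farsb (with Sgpp2), Yars, Eif2a, Eif3d, Eif5b, Eif6 and Eif4a2. Libraries were numbered in accession order, in which liver and spleen alternate. The labels pair no samples, so the main test treated the libraries as unpaired. Whether like-numbered libraries came from the same animals is not stated. The 5 summary rows, 25.5% to 29.0% of counts, were left out. Counts were tested with edgeR 4.0.16 in R 4.3.3 (filterByExpr, TMM, quasi-likelihood F test, Benjamini-Hochberg over 11716 genes), which was tested on simulated data. SE follows from the F statistic. Lengths are exons of coding transcripts in GENCODE M21 (GRCm38), whose build differs from the files', so levels per length are approximate. Every pair of libraries within a tissue differed beyond counting error (lowest chi-square over its degrees of freedom 4.56). Intervals of the fold changes were built from the SE that follows from the F statistic. They thus include the estimated spread among libraries, not counting error alone.

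The members and lists were chosen with earlier results of these data known. The text names all members, and of other lists up to 4 past the threshold with the smallest p, unless it says otherwise. Of 285 list entries 280 matched the table. Alternatives were DESeq2 size factors, upper-quartile scaling, DESeq2 1.42.0, limma-voom (limma 3.58.1), 2 filters (none, or 5 CPM in at least 3 libraries), marker genes removed, thinning and leaving out each library; a block on sex-linked transcripts was added after seeing the data.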

Additional observations from a re-analysis of the deposited data

How the results depend on the processing

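Of 645 values of the 43 members under 15 alternatives, 585 kept direction and side of the threshold, 17 lost a call, 14 gained one and 29 changed sign, none of the 29 past the threshold on either side. Eprs passed in 8 of 15 alternatives, Wars in 8 and Eif5a in 12. The causes were not tested.

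Members higher in liver numbered 1, and 0 with upper-quartile scaling, DESeq2 or thinned libraries, and 2 with limma-voom or no filter; synthetases higher in liver were 0, 0 and 0 in the first 3 of these and 2 with no filter. Members higher in spleen numbered 2, and 4 with upper-quartile scaling or the block on sex-linked transcripts, 7 with limma-voom and 1 when thinned. Synthetases higher in spleen numbered 1, and 2 with limma-voom and 0 when thinned. Factors higher in spleen numbered 1, and 3 with upper-quartile scaling, 2 with DESeq2, 5 with limma-voom and 3 with the block; factors higher in liver numbered 0, and 1 with limma-voom. Genes higher in liver numbered 620 and genes higher in spleen 404 when thinned, and the latter 1243 with limma-voom. With 1 library left out, members higher in liver were 0 to 1, members higher in spleen 0 to 2, synthetases higher in liver 0 to 1 and higher in spleen 0 to 0, factors higher in spleen 0 to 2, genes higher in liver 722 to 1245 and genes higher in spleen 486 to 989.

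Sign changes among members that did not pass, in log2 fold change, were Dars (-0.26) and Eif4ebp2 (-0.018) when thinned, Nars (0.028), Qars (0.039), Eif2s1 (0.023) and Eif3c (0.013) with limma-voom, Eif2s2 (-0.0084) and Eif4ebp2 (-0.019) with upper-quartile scaling, Eif4ebp2 with the block (-0.0010) and Eif4g2 with no filter (0.0022). With 1 library left out the ranges were -0.17 to 0.0058 for Cars, -0.10 to 0.096 for Nars, -0.19 to 0.094 for Qars, -0.10 to 0.054 for Eif2s1, -0.0072 to 0.069 for Eif2s2, -0.11 to 0.036 for Eif3c, -0.13 to 0.033 for Eif3e, -0.0031 to 0.25 for Eif6, -0.11 to 0.57 for Eif4ebp1, -0.074 to 0.15 for Eif4ebp2, -0.024 to 0.0049 for Eif4g2, -0.16 to 0.011 for Eef1a1 and -0.0041 to 0.13 for Eef2. Upper-quartile scaling shifted the median of all genes by -0.05. Depth limits Eif4ebp1 most, at 21 counts in spleen 1.
The labels give no replicate numbers. The block on sex-linked transcripts, which groups like-numbered libraries of the tissues and was chosen after seeing the data, added Eif3b and Eif4b to the members that passed.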
